A study of Mus musculus with 11 samples.

Results

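Cytosolic ribosomal protein genes and the upstream antisense RNAs (uaRNAs) that leave their promoters were followed in nascent RNA of mouse embryonic stem cells. The genes were taken by symbol from a table of reads counted over exons: every protein-coding gene whose symbol begins with Rpl or Rps and a digit, without the S6 kinase genes, plus Rplp0, Rplp1, Rplp2 and Rpsa. This gave 83 of the 13088 genes in the table. Of the 83, 30 encode proteins of the small ribosomal subunit (40S) and 45 encode proteins of the large subunit (60S). A further 7 are paralogs or copies (Rpl7l1, Rpl10l, Rpl22l1, Rpl36al, Rpl39l, Rps27l and Rps18-ps5). Rps19bp1 is named for binding RPS19 and is not itself a ribosomal protein. A second table of 5867 uaRNA regions held a region for 56 of these genes: 20 of the small subunit, 32 of the large subunit, 3 of the paralogs (Rpl7l1, Rpl10l and Rps27l) and Rps19bp1. The other 27 genes had no region there.

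The cells were wild-type F121-9, a female mouse embryonic stem cell line of CAST/129 hybrid background, grown on gelatin in serum-free medium with leukaemia inhibitory factor and inhibitors of MEK and GSK3. They received 30 nM of an siRNA against Zc3h4 (siZC3H4, replicates 2 and 3) or 30 nM of a non-targeting siRNA (siNT, replicates 1, 2 and 3). All were labelled with 500 µM 4-thiouridine for 20 minutes and harvested 47 hours after transfection. In this assay (TT-seq) the labelled RNA is fragmented and pulled down, so reads come from RNA made during the labelling. The series' design text calls the replicates biological, and the labels do not say whether they were separate cultures, so p-values measure the spread between these libraries, part of which may be technical. Samples of a degradable ZC3H4 line under DMSO or dTAG-13 are not analysed here.

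Ribosomal proteins are needed in near-equal amounts, 1 copy of most per ribosome, and their genes are among the most transcribed in dividing cells. Their mRNAs typically begin with a C followed by a run of pyrimidines, the terminal oligopyrimidine (TOP) motif, through which growth signals relayed by mTOR control translation. Most mammalian promoters also start transcripts in the antisense direction. These uaRNAs are short and quickly degraded, and ZC3H4 with WDR82 forms the Restrictor complex, which ends such noncoding transcription early.

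Nascent exon reads of the siRNA target were higher in the libraries labelled siZC3H4. Zc3h4 had 7285 and 6718 depth-normalized exon reads in the 2 libraries labelled siZC3H4, against 3465, 3610 and 3363 in the siNT libraries. The groups did not overlap, and Zc3h4 was higher, not lower, in the libraries labelled siZC3H4 (2.01-fold, limma adjusted p = 0.00431). These reads come from RNA made during the labelling, so they do not give the amount of Zc3h4 mRNA or protein present. A knockdown was thus not measured here, and the libraries are called by their label throughout. All 8 embryonic stem cell markers were in the table, with summed reads between 75986 and 106425 per library. Of fibroblast markers only Thy1 was in the table, at 76.5 to 135 reads. Gata4 and Gata6 of 4 endoderm markers summed to 26.1 to 108. All 4 neural markers were present, with summed reads of 1944 and 1892 in the libraries labelled siZC3H4, against 1595, 1310 and 1557 in siNT. The sums did not overlap, and the markers' median was 1.44-fold higher in the libraries labelled siZC3H4, with 0 of 4 past limma's test (2 at an unadjusted p under 0.05). Of the 8 stem cell markers 7 lay below 0, as did 5932 of all 12482 tested genes. Their median log2 change was -0.09, with 0 of 8 past limma's test (1 at an unadjusted p under 0.05). Their summed reads overlapped, at 75986 and 92314 in the libraries labelled siZC3H4, against 92900, 89522 and 106425 in siNT. The part of these markers in the results below was not tested. Exon reads per library before normalization totalled 14840637 to 26548710, and uaRNA reads 996927 to 2648683. Values below are those reads divided by 1 depth factor per library.

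Nascent transcription over the exons of ribosomal protein genes was high and did not pass the test for any gene. Of the 83 genes 0 rose and 0 fell by limma at an adjusted p of 0.05, while 2.22% of the 12482 genes tested rose and 0.144% fell. At an unadjusted p under 0.05 there were 2 (Rpl39l and Rps27l), against 1915 of all 12482 genes. The unadjusted counts over exons given below for other lists have this same background. With edgeR and DESeq2, 0 of the 83 were called as well. The median log2 change of the 83 was 0.07, and the middle of the distribution lay between 0.02 and 0.11 (interquartile range). The median over all tested genes was 0.01.

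The levels were set side by side per kilobase of the transcript length that the table gives. Genes of the small subunit had a median of 18106 reads per kb in the libraries labelled siZC3H4 and 16766 in the siNT libraries. For the large subunit the medians were 13878 and 13185 in the same order. Over all tested protein-coding genes they were 215 reads per kb in the libraries labelled siZC3H4 and 210.2 in siNT. Of the 100 protein-coding genes with the most reads per kb in siNT, 61 were ribosomal protein genes. The 75 core genes spanned a 12.6-fold range in siNT. That range depends on the lengths given: Rpl5 and Rps20, the lowest of their subunits, have 1975 and 3390 bases. RefSeq names 318 pseudogene copies for 62 of the 83 genes, so reads may be split between a gene and its copies, and levels of single genes are uncertain to that extent.

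Rpl3, which lies near the peptidyl transferase centre, had the highest level, with 37094 ± 875 reads per kb in the libraries labelled siZC3H4 and 37165 ± 2823 in the siNT libraries (SD, n = 2 and n = 3). Rps3, at the mRNA entry channel, followed with 37383 ± 3602 and 33758 ± 300.2 in the same order of groups. Rps12, Rplp1, Rps9 and Rpl12 completed the top 6 of siNT, at 27555 to 33294 reads per kb in the libraries labelled siZC3H4 and 28393 to 31649 in siNT. The order of Rpl3 and Rps3 turned between the groups, and no order among neighbours was tested.

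At the low end of the core genes stood Rpl5, which carries 5S rRNA into the large subunit together with Rpl11 and binds MDM2 when assembly stalls. It had 3071 ± 395 reads per kb in the libraries labelled siZC3H4 and 2946 ± 558 in siNT. Its partner Rpl11 had 10559.7 ± 84.2 and 10030.3 ± 331. The 2 proteins enter the ribosome in equal numbers, while their genes differed more than 3-fold in nascent reads per kb in each group. Before division by length, Rpl5 had 6064 exon reads and Rpl11 had 6272 in the libraries labelled siZC3H4. In siNT they had 5818 and 5958. The gap per kb thus comes from the transcript lengths given, 1975 and 594 bases, and is not seen in the reads themselves.

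The lowest levels belonged to the paralogs. Rpl39l, a paralog of the exit-tunnel protein gene Rpl39, had 383 ± 29.8 reads per kb in the libraries labelled siZC3H4 and 282 ± 39.6 in siNT. Rpl10l, a retrogene of Rpl10 that is active in the testis, had 438 ± 33.4 and 489 ± 95.9. Rps18-ps5, Rps19bp1, Rpl36al and Rpl22l1 lay between 677 and 2859 reads per kb in the libraries labelled siZC3H4 and between 666 and 2639 in siNT. Rpl10 itself, for comparison, had 20093 ± 1651 reads per kb in the libraries labelled siZC3H4 and 19781 ± 1119 in siNT.

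**Figure D1:**
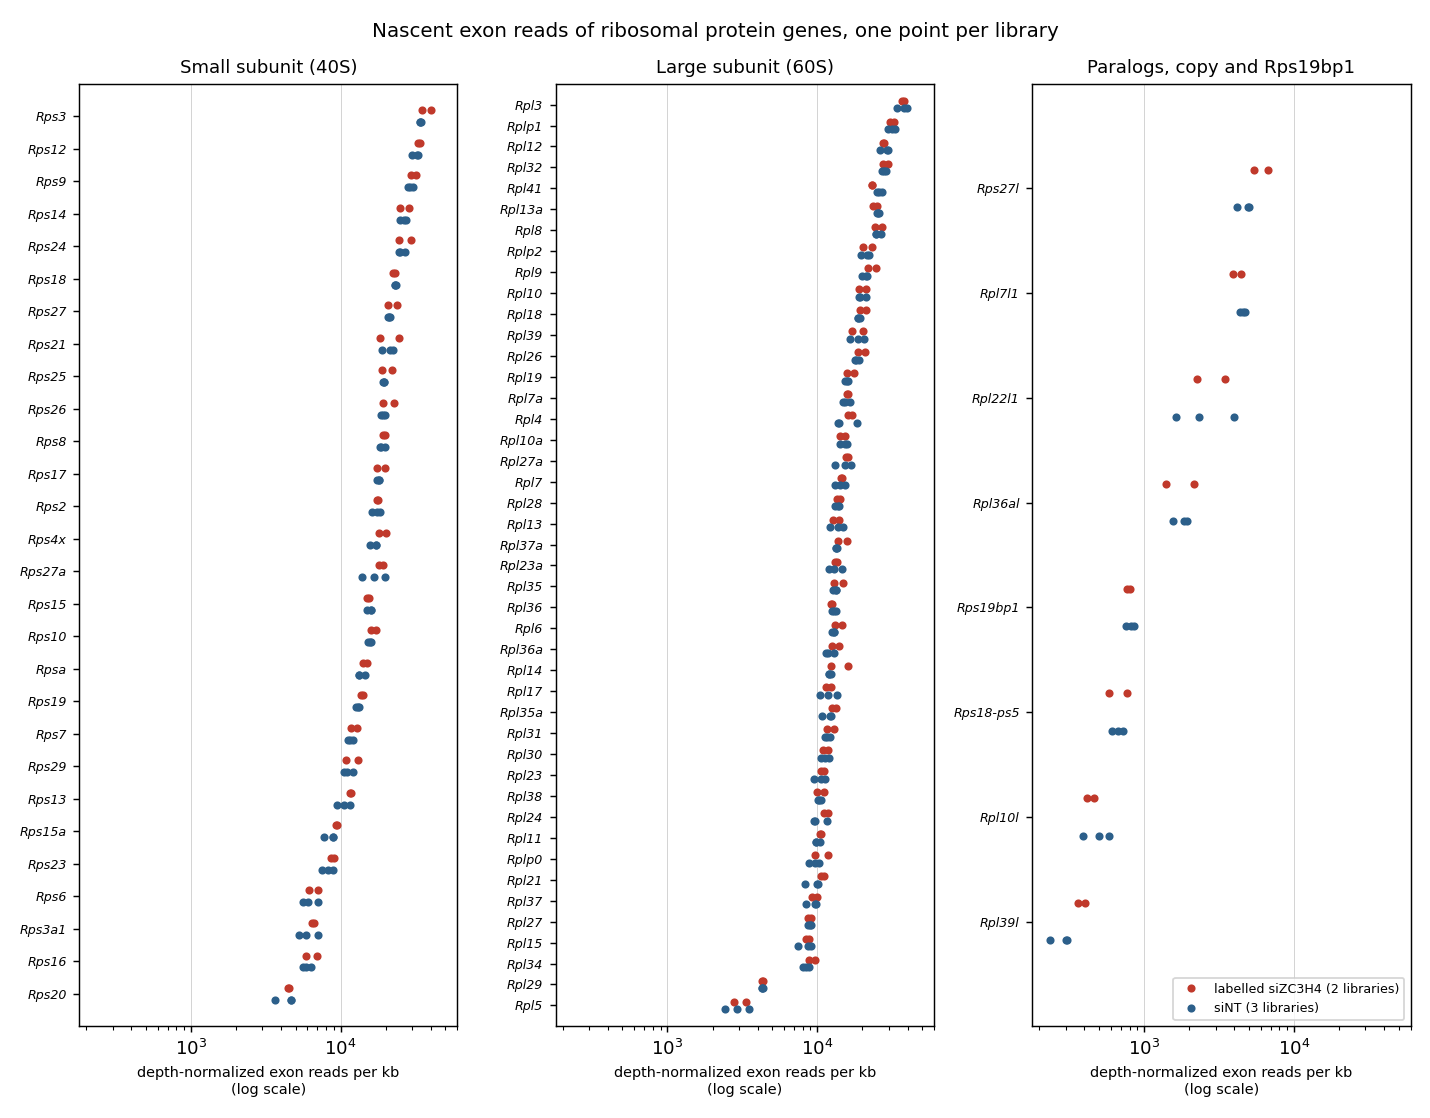
Depth-normalized exon reads per kb of transcript (log axis) of 80 of the 83 genes, 1 point per library, with the 2 libraries labelled siZC3H4 in red above the 3 siNT libraries in blue. Core genes of both subunits average 2946 to 37165 reads per kb in siNT, with red and blue points close together, and the paralogs reach down to Rpl39l at 282 in siNT.

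For the 30 genes of the small subunit the median log2 change over exons was 0.08, with 28 above 0. For the 45 genes of the large subunit it was 0.04, with 37 above 0. The largest positive value among core genes was that of Rpl14. Rpl14 had 15043 and 11604 exon reads in the libraries labelled siZC3H4, against 11272, 11249 and 11489 in siNT. The first library stood apart and the second lay just over the siNT range (log2 change 0.22 ± 0.13 SE, limma adjusted p = 0.495).

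Rpl21 (0.20 ± 0.13) and the X-linked Rps4x (0.18 ± 0.12) were the next on the log2 scale, neither past the test. The most negative was Rpl41, which encodes the smallest protein of the ribosome. It had 9045 and 9068 reads in the libraries labelled siZC3H4, against 10106, 9762 and 10461 in siNT. The groups did not overlap, yet the difference was small (log2 change -0.16 ± 0.11 SE, limma adjusted p = 0.562). Rpl13a, Rpl36 and Rpl12 followed at -0.07, -0.06 and -0.04.

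Groups did not overlap for 19 of the 83 genes. In 17 of them the libraries labelled siZC3H4 were higher, where 19.5% of all tested genes were, and in 2 (Rpl41 and Rpl36) they were lower, where 12.8% of all genes were. The share of members is close to the background in the first direction. The intervals bound how far the core genes could have moved: for all 75, the 95% confidence interval of the fold change lay within 1.5-fold in both directions. Its outer bounds on the log2 scale were -0.40 and 0.52. The same held for 80 of the 83 members and 6174 of all 12482 genes.

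The P stalk recruits elongation factors to the large subunit and is built of Rplp0, Rplp1 and Rplp2 on a base that includes Rpl12. Its log2 changes over exons were 0.16 ± 0.13, 0.02 ± 0.11, 0.04 ± 0.12 and -0.04 ± 0.11 (SE). The 5S partners Rpl5 and Rpl11 both gave 0.07. Neither group passed the test in any member.

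Paralogs varied more. Rpl39l had 318 and 285 exon reads in the libraries labelled siZC3H4, against 186, 238 and 241 in siNT. The groups did not overlap (log2 change 0.45 ± 0.19 SE, limma adjusted p = 0.298). Rps27l, a paralog of Rps27 known as a p53 target, had 3332 and 2692 in the libraries labelled siZC3H4, against 2064, 2459 and 2481. It too was apart without passing (log2 change 0.36 ± 0.14 SE, limma adjusted p = 0.257), but passed with the replicate number as a block (adjusted p = 0.0348).

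Rpl22l1, the paralog of Rpl22, had 1078 and 1649 exon reads in the libraries labelled siZC3H4, against 1101, 775 and 1901 in siNT. Its spread inside each group exceeded the difference between them (log2 change 0.18 ± 0.33 SE), and replicate 3 was the highest in both groups. The log2 changes of Rpl10l and Rpl7l1, an assembly factor related to Rpl7, were -0.14 ± 0.19 and -0.12 ± 0.11. Those of Rpl36al, Rps19bp1 and Rps18-ps5 lay between -0.03 and 0.01.

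As a share of all exon reads, the 83 genes took 6.22% and 5.71% in the libraries labelled siZC3H4, against 5.98%, 5.48% and 5.65% in siNT. The groups overlapped, and libraries differed from each other by more than counting error, as the first of these shares had a 95% Wilson interval of 6.21% to 6.23%. In bulk RNA, fewer cells with a transcript and less of it per cell cannot be told apart.

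The genes' starts were read in RefSeq promoter sequences (GRCm38.p6, the assembly of mm10). Of the 83 genes 62 were matched by symbol, and for 60 the RefSeq start lay within 100 bases of the start in the exon table. A C at the first base followed by 4 or more pyrimidines was found in 12 of the 60 (20.0%), against 1.93% of 7239 other protein-coding genes. Annotated starts need not be the starts used, and the exact first base matched in only 7 genes. The following windows run from 10 bases before the RefSeq start to 15 bases from it, 5′ to 3′ on the gene's strand, and are shown because they carry the TOP motif that marks the family. Capitals mark the unbroken pyrimidine run that begins at the start.
Rpl14, chr9:120571507-120571531, plus strand: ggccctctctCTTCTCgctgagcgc
Rplp2, chr7:141447641-141447665, plus strand: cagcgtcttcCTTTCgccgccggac
Rps10, chr17:27635230-27635254, minus strand: gcgcacgcccCTTCCTTTCCagcct
Rpl28, chr7:4792955-4792979, plus strand: tctcgtgtctCTCTTTCCgtctccg
Rpl35, chr2:39005117-39005141, minus strand: ccgccctttcCTCTTTCTCTCgaac
Rps6, chr4:86857353-86857377, minus strand: gaagtcgggcCTCTTTTTCgtgacg
The runs were 5 bases long in Rplp2 and 11 bases in Rpl35. These 6 were picked after their values were seen, from the 12 genes with such a start, of which 7 have a uaRNA region. All 6 uaRNAs rose, where 62.1% of all uaRNAs did, so the 6 say nothing about starts of this kind. The call of Rpl35 depends on the scaling and on a single library, as given below.

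The uaRNAs of ribosomal protein genes were higher in the libraries labelled siZC3H4. Of 56 tested, 40 rose (71.4%) and 0 fell by limma at an adjusted p of 0.05, where 62.1% of all 5124 tested uaRNAs rose and 1.13% fell. The 40 were also the only ones at an unadjusted p under 0.05, where 3407 of all uaRNAs were. With the same depth factors edgeR and DESeq2 each called 39 higher and 0 lower. The median log2 change was 1.19 (2.29-fold), with an interquartile range of 0.59 to 1.51, against 0.88 (1.84-fold) over all uaRNAs. More than 2-fold changes were seen in 33 of 56 (58.9%), against 43.0% of all uaRNAs. Lengths and positions of uaRNA regions are not given in the table, so a uaRNA's level is tested only against itself between groups. Read numbers of different uaRNAs depend on those unknown lengths and serve below only to choose which are described.

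How many passed depends on how the tables are scaled. Under the median-of-ratios factors of the exon table, 67.9% of the 56 rose, with a median log2 change of 1.154. Over all uaRNAs 58.2% rose under these factors, with a median of 0.842. If the uaRNA table gets its own median-of-ratios factors, all uaRNAs shift by about their median of 0.88. Then 15 of the 56 rose and 5 fell, with a median of 0.33, against 536 rises and 597 falls among all 5084 tested. Of the 53 uaRNAs above 0 on the authors' scale, 18 then lie below 0. Directions below are on the authors' scale, and those that turn under self-scaling are named where their values are given.

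Per library, the median uaRNA of the family stood 1.41 and 0.93 log2 units above the siNT mean in replicates 2 and 3 labelled siZC3H4. In siNT replicates 1, 2 and 3 it stood at 0.07, -0.02 and -0.02. Over all uaRNAs the medians were 0.99 and 0.78 in the libraries labelled siZC3H4 and 0.08, -0.13 and 0.06 in siNT. Replicate 2 was thus the higher of the libraries labelled siZC3H4, and 49 of the 56 uaRNAs were higher in it than in replicate 3 (69.2% of all uaRNAs). It was also the deepest library, and any part of depth in this was not tested. The exon reads of the 83 genes stood at 0.12 and 0.02 in the libraries labelled siZC3H4 and between -0.05 and 0.03 in siNT. With replicate 3 as the only library labelled siZC3H4, which is then assumed to vary as the siNT libraries do, 31 of 56 uaRNAs rose (55.4%) with a median of 0.93, against 36.3% and 0.78 over all uaRNAs.

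**Figure D2:**
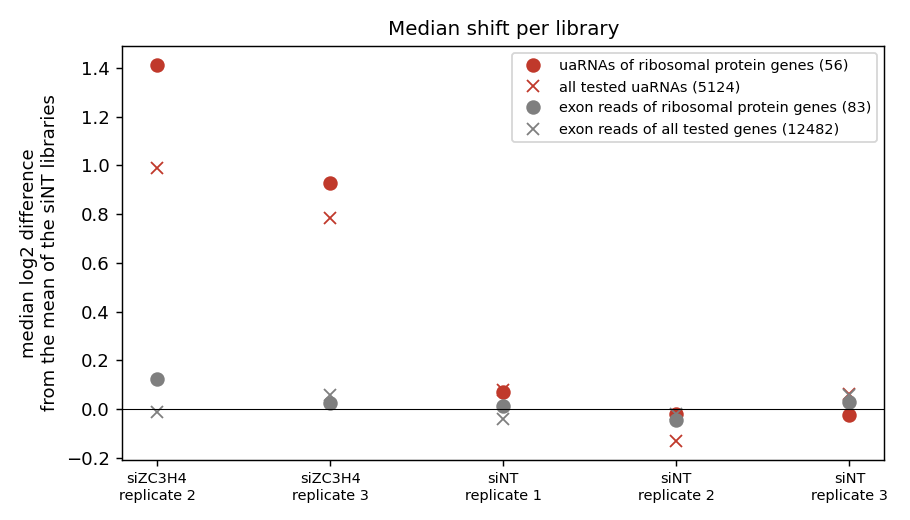
Median log2 difference from the mean of the siNT libraries, per library, for uaRNAs (red) and exon reads (grey) of ribosomal protein genes (circles) and of all tested features (crosses). Both libraries labelled siZC3H4 lie high for uaRNAs, at 1.41 and 0.93 for the family, while exon medians stay between -0.05 and 0.12 in all 5 libraries.

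Members of the family took 2.67% and 1.95% of all uaRNA reads in the libraries labelled siZC3H4, against 1.52%, 1.66% and 1.33% in siNT. The groups did not overlap. The 95% Wilson interval was 1.92% to 1.97% for the lower library labelled siZC3H4 and 1.63% to 1.68% for the highest siNT library; these intervals cover counting error only. The median member had 323 uaRNA reads in the libraries labelled siZC3H4 and 141 in siNT.

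Rises were called in both subunits. Among small subunit genes 16 of 20 uaRNAs rose (80.0%), with a median log2 change of 1.24. Among large subunit genes 23 of 32 rose (71.9%), also with a median of 1.24. Over all uaRNAs 62.1% rose with a median of 0.88, and the differences were not tested. Of the 3 paralogs 0 rose by limma, with 0 at an unadjusted p under 0.05 and a median of 0.09. Groups did not overlap in 45 of the 56, all with the libraries labelled siZC3H4 above, where 73.7% of all uaRNAs stood apart that way.

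Rpl13, a large subunit gene at chr8:123102414-123105244 on the plus strand of mm10, had one of the largest rises. Its uaRNA had 746 and 377 reads in the libraries labelled siZC3H4, against 91.0, 93.9 and 74.2 in siNT (6.11-fold, log2 change 2.61 ± 0.26 SE, limma adjusted p = 2.58e-12). Its exon reads, at 9115 and 9958 against 9806, 8642 and 10567, overlapped between the groups. At this promoter the antisense transcript was higher while the sense transcript was within its spread.

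The P stalk genes Rplp2 and Rplp1 followed. The Rplp2 uaRNA had 2298 and 1229 reads in the libraries labelled siZC3H4, against 338, 469 and 331 in siNT. The Rplp1 uaRNA had 881 and 843, against 209, 169 and 235. Both rose more than 4-fold, by 2.16 ± 0.23 and 2.08 ± 0.23 on the log2 scale (limma adjusted p = 7.68e-12 and 3.43e-11). The libraries labelled siZC3H4 nearly coincided for Rplp1 and lay well apart for Rplp2. The gene Pidd1 lies within 1 kb upstream of Rplp2 on the opposite strand. Whether reads of the Rplp2 region are those of Pidd1 was not tested. The stalk genes Rplp0 and Rpl12 had no uaRNA region.

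Rpl36a, Rpsa and Rpl14 were also among the 8 largest rises. The uaRNA of Rpl14 had 2838 and 1983 reads in the libraries labelled siZC3H4, against 584, 623 and 568 in siNT (4.01-fold, limma adjusted p = 5.55e-12). Rpsa, whose product is also known as the laminin receptor precursor, had 759 and 408 against 151, 156 and 112 (4.01-fold). The X-linked Rpl36a had 361 and 169 against 88.0, 56.5 and 40.1 (4.17-fold). In all of these the lower library labelled siZC3H4 stayed above the highest siNT library. In all, 7 of the 56 rose 4-fold or more. The share of all uaRNAs at that limit was not counted, so this count does not set the family apart. The upper quartile of the log2 change was 1.51 in the family and 1.31 over all uaRNAs.

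**Figure D3:**
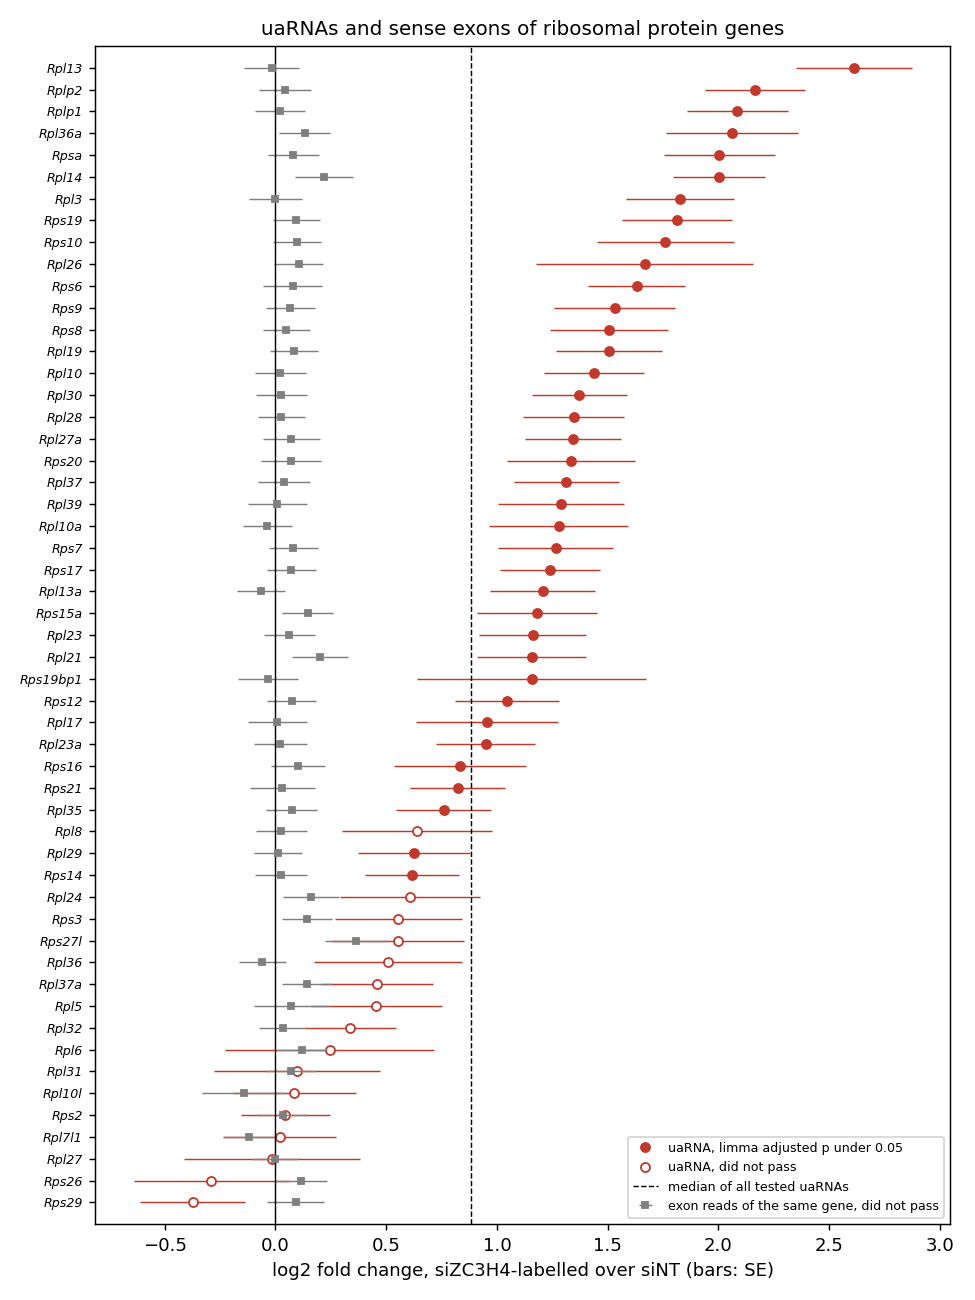
Log2 fold change (libraries labelled siZC3H4 over siNT, bars are SE) of 53 of the 56 uaRNAs as red circles, filled where limma's adjusted p is under 0.05, and of the exon reads of the same genes as grey squares. The grey squares run from -0.14 (Rpl10l) to 0.36 (Rps27l) and the red circles from -0.37 (Rps29) to 2.61 (Rpl13). The dashed line marks the median of all tested uaRNAs at 0.88.

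The uaRNAs with the most reads counted in siNT did not share a response. That of Rps2, a protein of the mRNA entry side, had 1928 and 1446 reads in the libraries labelled siZC3H4, against 1773, 1754 and 1364 in siNT. The groups overlapped (log2 change 0.04 ± 0.20 SE, limma adjusted p = 0.849). The noncoding snoRNA host gene Snhg9 lies within 1 kb upstream of Rps2 on the opposite strand, with Snora78. Exon reads of Snhg9, looked up after the Rps2 values were seen, were 1092 and 1259 in the libraries labelled siZC3H4, against 1268, 1330 and 1352 in siNT. Whether reads of the Rps2 region are those of Snhg9 was not tested.

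The uaRNA of Rpl32 had 1518 and 1118 reads in the libraries labelled siZC3H4, against 1163, 1030 and 913 in siNT. It overlapped too and did not pass (log2 change 0.34 ± 0.20 SE, limma adjusted p = 0.141). Rpl28, Rpl23a and Rpl35, also chosen for their read numbers, rose. Rpl28 had 3237 and 1460 reads against 933, 1078 and 619 (2.54-fold), and replicates labelled siZC3H4 differed more than 2-fold from each other.

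Rpl23a and Rpl35, both at the rim of the peptide exit tunnel, rose 1.93-fold and 1.69-fold (limma adjusted p = 0.000252 and 0.00206). Without replicate 2 labelled siZC3H4 the calls of Rpl23a and Rpl35 were lost, with log2 changes of 0.39 and 0.38, against 0.95 and 0.76 with it.

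At the other end, the Rpl26, Rps19bp1, Rpl6 and Rpl27 uaRNAs averaged 7.45 to 21.9 reads in siNT. Rpl26 had 24.3 and 23.9 in the libraries labelled siZC3H4, against 12, 5.22 and 5.12 in siNT, and rose (3.18-fold, limma adjusted p = 0.00284). Rps19bp1 had 17 and 17.2 against 3, 8.70 and 12.8, and was called by a narrow margin (limma adjusted p = 0.0464). Without replicate 2 labelled siZC3H4 both calls were lost (adjusted p = 0.0582 and 0.203) in a fit with 1 library in that group. The log2 changes were then 1.65 and 1.165, against 1.67 and 1.156 with it, so the sizes hardly moved. With all libraries edgeR did not call Rps19bp1 (adjusted p = 0.0555). Rpl6 had 14.1 and 13.4 against 13, 11.3 and 10.2, and Rpl27 had 22.1 and 21 against 20, 20.9 and 24.7. Neither of these passed. The 95% interval of Rpl27 ran from -0.81 to 0.78 on the log2 scale, so a 1.5-fold change was not detectable at this depth.

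Among uaRNAs with a mean of 50 or more, Rpl7l1, Rps2, Rpl10l, Rpl32, Rps29 and Rpl5 changed least. Rpl7l1 had 204 and 141 in the libraries labelled siZC3H4, against 189, 170 and 148 in siNT (log2 change 0.02 ± 0.26 SE). Rpl10l had 136 and 171 against 148, 87.8 and 228. Rpl5 had 93.9 and 82.2 against 72.0, 52.2 and 69.1, apart but not past the test (log2 change 0.46 ± 0.29 SE, limma adjusted p = 0.168). Scaled on the uaRNA table itself, the changes of Rpl7l1, Rps2, Rpl10l, Rpl32, Rpl5, Rpl6 and Rpl35 turn negative. By the median of ratios Rpl7l1 (-0.87), Rps2 (-0.85) and Rpl32 (-0.55) then pass as falls (limma adjusted p = 0.011, 0.0073 and 0.041). Rpl28, Rpl23a, Rpl26 and Rps19bp1 no longer pass as rises.

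Only 3 uaRNAs of the family lay below 0. Rps29 had 227 and 258 reads in the libraries labelled siZC3H4, against 360.0, 251 and 342 in siNT. The groups overlapped (log2 change -0.37 ± 0.24 SE, limma adjusted p = 0.158). Scaled on the uaRNA table itself it fell (-1.26, adjusted p = 0.00119), and it also passed without siNT replicate 2. A 7SL RNA gene, Rn7s1, lies in the 1 kb upstream of Rps29. Rps26 had -0.29 ± 0.35 and Rpl27 -0.01 ± 0.40 on the log2 scale. Under the same self-scaling Rps26 fell as well (-1.15, limma adjusted p = 0.0096), and Rpl27 did not pass (-0.86, limma adjusted p = 0.0712). The 5 falls by the median of ratios were thus Rps29, Rps26, Rpl7l1, Rps2 and Rpl32.

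**Figure D4:**
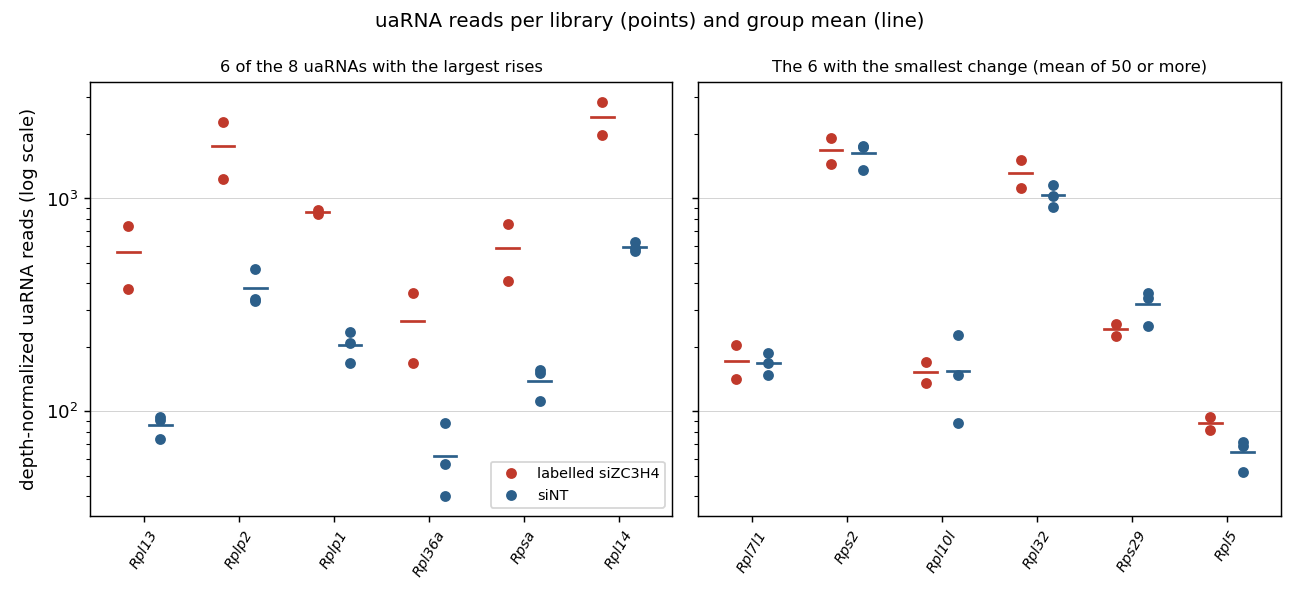
Depth-normalized uaRNA reads per library (log axis, points) and group mean (line) for 6 of the 8 uaRNAs with the largest rises, left, and the 6 with the smallest change at a mean of 50 or more, right, with libraries labelled siZC3H4 in red left of siNT in blue. On the left every red point lies above every blue point of its gene, and on the right the groups overlap for Rpl7l1, Rps2, Rpl10l, Rpl32 and Rps29.

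The 16 uaRNAs that did not pass included Rpl8, Rpl24, Rps3, Rps27l, Rpl36, Rpl37a and Rpl31 beside those already described. The log2 changes of these 7 ran from 0.10 for Rpl31 to 0.64 for Rpl8. All 7 turn negative under self-scaling, with values of -0.76 for Rpl31 to -0.23 for Rpl8 by the median of ratios. In 5 of the 16 the groups did not overlap. The gene with the second highest exon level, Rps3, had a uaRNA of 153 and 141 reads in the libraries labelled siZC3H4, against 101, 60.9 and 160.4 in siNT. The gene with the highest, Rpl3, had 624 and 401 against 138, 146 and 137, and rose 3.54-fold.

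By role in the ribosome, 6 of the 7 genes at the rim of the peptide exit tunnel had a uaRNA that rose, with a median log2 change of 0.95. The exception was Rpl31. Of genes mutated in human Diamond-Blackfan anaemia, a failure of red cell formation, 8 of 14 rose with a median of 0.86, close to the 62.1% and 0.88 of all uaRNAs. Over their exons 0 of 20 passed, with 0 at an unadjusted p under 0.05 and a median of 0.08. Core genes that hold a snoRNA gene inside them had 20 of 25 uaRNAs up with a median of 1.29, and those without had 19 of 27 up with a median of 1.24. The same 62.1% and 0.88 over all uaRNAs stand beside these counts, and the differences were not tested.

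Each uaRNA was then set against the exon reads of its own gene within a library. Of 56 pairs 36 rose in the ratio of uaRNA to exon reads and 0 fell, where 53.9% of all 5106 pairs rose and 1.23% fell. At an unadjusted p under 0.05 there were 37, against 3161 of all pairs. The median ratio was 2.24-fold higher in the libraries labelled siZC3H4, against 1.83-fold over all pairs. The call rests on replicate 2 labelled siZC3H4: without it 10 of the 56 pairs passed (17.9%), with a median log2 change of 0.87, against 18.5% and 0.73 over all pairs in the same fit. With the replicate number as a block 35 pairs rose (62.5%, median 1.06), against 61.9% and 0.95 over all pairs. The median gene had 3.27 uaRNA reads per 100 exon reads in the libraries labelled siZC3H4 and 1.26 in siNT.

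Ratios of different genes rest on uaRNA regions of unknown length and on exons of unlike length, so each is set only against itself. Rpl10l, where the sense gene is low, had 34.1 uaRNA reads per 100 exon reads in the libraries labelled siZC3H4 and 30.8 in siNT. Rpl28 had 34.1 in the libraries labelled siZC3H4 and 13 in siNT, Rpl23a had 26.9 and 13.3, and Rpl35 had 18.6 and 11.2. Rps2 was at 10.1 and 9.94. Rps29, at 6.91 in the libraries labelled siZC3H4 and 9.68 in siNT, went the other way without passing the test (limma adjusted p = 0.200). 

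At Rpl6, Rpl26, Rpl8, Rpl3, Rpl27 and Rps20 few uaRNA reads were counted for the exon reads. These 6 lay between 0.0813 and 1.07 uaRNA reads per 100 exon reads in the libraries labelled siZC3H4, and between 0.0739 and 0.373 in siNT. Rpl3 had 1.07 in the libraries labelled siZC3H4 and 0.291 in siNT, and Rps20 had 0.907 and 0.373.

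The size of a uaRNA's change was little related to other measures of the gene. Across the 56 genes the correlation of the uaRNA log2 change with the siNT uaRNA reads was r = 0.06 (rho = 0.10), with the siNT exon reads per kb r = 0.24 (rho = 0.25), and with the exon log2 change r = 0.09 (rho = 0.06). With the GC content of the 250 bases upstream it was r = 0.25 (rho = 0.17) over 36 genes. Genes are not independent replicates and share all 5 libraries, so these are descriptions.

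Annotated neighbours were counted because reads near a promoter can belong to another gene. RefSeq lists another gene within 1 kb upstream for 22 of the 83 genes. These were 7 of the 56 with a uaRNA region (among them Rplp2, Rps2, Rps10, Rps29, Rpl37 and Rps20) and 15 of the 27 without. With a neighbour 5 of 7 uaRNAs rose, and without one 35 of 49 did, with medians of 1.34 and 1.16, where 62.1% of all uaRNAs rose with a median of 0.88.

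The 250 bases upstream of the start were compared in the largest rises with a sequence in the table, Rpl13 and Rplp2, and in the smallest changes, Rpl7l1 and Rps2. They read 5′ to 3′ on the gene's strand, so the uaRNA is read from the complementary strand. Capitals mark the letters of 7 motifs on either strand, some of which overlap: the TATA box core TATAA, the ETS factor core CCGGAAG, the GC box core GGGCGG, the YY1 core AAGATGG, the 5′ splice site letters GGTAAG, their variant form GGTGAG, and the polyadenylation signal AATAAA.
Rpl13, chr8:123102100-123102349, plus strand: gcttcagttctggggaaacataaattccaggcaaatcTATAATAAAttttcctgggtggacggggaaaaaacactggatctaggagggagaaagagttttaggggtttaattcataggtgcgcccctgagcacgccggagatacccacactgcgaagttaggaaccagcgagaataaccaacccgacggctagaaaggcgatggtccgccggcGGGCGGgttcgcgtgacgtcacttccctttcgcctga
Rplp2, chr7:141447401-141447650, plus strand: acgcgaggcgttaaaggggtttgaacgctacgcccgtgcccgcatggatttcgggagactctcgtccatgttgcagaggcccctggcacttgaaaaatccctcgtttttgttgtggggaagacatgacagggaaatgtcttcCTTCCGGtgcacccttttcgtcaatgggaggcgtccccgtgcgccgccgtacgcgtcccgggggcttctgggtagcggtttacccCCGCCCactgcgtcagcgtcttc
Rpl7l1, chr17:46782657-46782906, minus strand: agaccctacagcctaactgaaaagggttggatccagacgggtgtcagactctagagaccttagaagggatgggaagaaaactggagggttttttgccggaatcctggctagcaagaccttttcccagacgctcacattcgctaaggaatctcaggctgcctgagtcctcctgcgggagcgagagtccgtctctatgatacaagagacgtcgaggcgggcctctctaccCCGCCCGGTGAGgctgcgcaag
Rps2, chr17:24719813-24720062, plus strand: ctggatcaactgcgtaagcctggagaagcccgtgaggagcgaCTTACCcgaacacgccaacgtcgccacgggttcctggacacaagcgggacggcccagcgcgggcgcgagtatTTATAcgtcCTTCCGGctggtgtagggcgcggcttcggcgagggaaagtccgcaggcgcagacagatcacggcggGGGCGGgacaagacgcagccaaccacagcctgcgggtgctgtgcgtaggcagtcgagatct
On the antisense strand, Rps2 held the TATA box core, the ETS letters and the first of the splice site forms. Rplp2 held the ETS letters and a GC box there, and Rpl7l1 a GC box. Rpl13 held a TATA box core, a polyadenylation signal and a GC box on the sense strand and none of the 7 on the antisense strand.

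Over all 60 genes with a sequence, TATAA was on either strand in 20.0%, against 11.1% of the 7239 other protein-coding promoters. Counted on either strand likewise, the ETS letters were in 30.0% against 16.3%, the GC box in 53.3% against 67.1%, and the YY1 letters in 5.00% against 4.16%. The first splice site form was in 8.33% against 5.64%, its variant in 13.3% against 15.3%, and the polyadenylation signal in 6.67% against 9.57%. The C followed by 4 pyrimidines was at the start of 7 of 26 genes whose uaRNA rose and of 0 of 10 whose uaRNA did not pass. These matches are of letters only and were not tested.

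Other genes of the ribosome's pathway gave a comparison. Rack1 and Fau, ribosomal proteins whose symbols fall outside the selection, had exon log2 changes of 0.035 ± 0.11 and 0.078 ± 0.11 (SE), neither past the test. The uaRNA of Rack1 had 2714 and 2052 reads in the libraries labelled siZC3H4, against 878, 923 and 734 in siNT, and rose by 1.49 ± 0.20 on the log2 scale. Of 20 other genes with TOP mRNAs, 0 passed over exons by limma (1 at an unadjusted p under 0.05), with a median of 0.14 and 18 above 0. Over all tested genes the median was 0.01, with 52.5% above 0. The most read were the elongation factors Eef1a1, at 61258 ± 6565 reads in the libraries labelled siZC3H4 and 61559 ± 11427 in siNT, and Eef2, at 55920.5 ± 2296 and 50739.7 ± 3509. All 10 uaRNAs of TOP genes rose, with a median of 1.41, where 62.1% of all uaRNAs rose with a median of 0.88. Among them were those of Eef1a1 (1.73 ± 0.23), Nap1l1 (2.63 ± 0.47) and Eif4b (2.28 ± 0.30).

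Of 89 ribosome biogenesis genes 0 passed by limma, with 0 at an unadjusted p under 0.05 and a median of 0.01. The most read were the snoRNP gene Nop56, at 20061 ± 634 reads in the libraries labelled siZC3H4 and 20202 ± 582 in siNT, and Mybbp1a, at 20254 ± 1770 and 18783 ± 1705. Of their 38 uaRNAs 29 rose (76.3%), with a median of 1.04, including that of Nop56 (1.58 ± 0.21). Of 18 RNA polymerase I genes 0 passed (1 unadjusted). Of their 9 uaRNAs 3 rose (33.3%: Taf1a, Taf1b and Ttf1) with a median of 0.36. Both lists stand beside the 62.1% and 0.88 of all uaRNAs, and the differences were not tested.

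The 12 transcription and TOR regulators of ribosomal protein genes had a median exon log2 change of -0.09 with 0 past limma's test (1 unadjusted). Of their 8 uaRNAs 5 rose (Eif4ebp1, Larp1, Max, Mtor and Mycn). That share, 62.5%, is close to the 62.1% of all uaRNAs. Mitochondrial ribosomal proteins are encoded by separate nuclear genes and make up another ribosome. Of 72 tested 0 passed over exons (6 unadjusted), with a median of -0.04. Of their 27 uaRNAs 12 rose (44.4%) with a median of 0.66, against 40 of 56 (71.4%) and 1.19 in the cytosolic family. The difference between the families was not tested, and both numbers stand beside the 62.1% and 0.88 of all uaRNAs.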

How the data were processed

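Exon reads of genes and reads of uaRNA regions came as 2 deposited tables of normalized signal, in which each value is a whole read count divided by a library's depth factor. The factor was 1.767 in siZC3H4 replicate 2, 1.046 in siZC3H4 replicate 3, and 1, 1.15 and 1.172 in siNT replicates 1 to 3. With them 100% of values came out whole within 0.01 reads. Their origin is not stated in the labels or headers used here. Tools named in the submitters' processing notes are cutadapt 1.14, STAR, featureCounts and DESeq2, with builds mm10 and dm6. No order or settings come with these names. Libraries came from a stranded kit, per the labels' protocols.

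Tests were run here with limma 3.58.1 in R 4.3.3 (lmFit, eBayes with trend) on log2(value + 1), which understates changes of low features. All features with a mean of 10 or more were fitted and p-values adjusted by Benjamini-Hochberg over the whole table. The uaRNA ratio was the difference of the log2 values of a uaRNA and its gene. All 83 genes and 56 uaRNAs passed the filter. The limma test was also run on simulated counts, with few features changed and the depth factors taken as true. That setting has no shared replicate effect and no shift of most uaRNAs, so it cannot speak to the scaling. Alternatives were other pseudocounts, filters and scalings, edgeR 4.0.16 (345 genes and 3251 uaRNAs rose) and DESeq2 1.42.0 (537 and 2835) on the recovered reads, the replicate number as a block and leaving out each library. With 67.5 moderated degrees of freedom in the uaRNA fit, against 9.22 in the exon fit, p-values of single uaRNAs lean on the spread of all uaRNAs.

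The members and lists were chosen with earlier results of these data known. Genes named were those with the 6 highest and lowest exon levels, the 6 largest changes each way, the small subgroups, and for uaRNAs the 8 largest rises, the highest and lowest levels, the smallest changes and the extreme ratios. Outside the family they were Zc3h4 and, of each list, members past the threshold or else the 2 most read. Rpl10, Rps26, Rpl31, Rps3 (as a uaRNA), the other uaRNAs short of the threshold, Snhg9 and the genes with printed sequences were added after their values were seen. Results of some genes are not reported here; counts and medians include them.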

Additional observations from a re-analysis of the deposited data

How the results depend on the processing

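Changes over exons were small under every setting tried. No ribosomal protein gene fell under any of them, and 1 gene (Rps27l) rose in the fit with replicate numbers as blocks. Their median log2 change was 0.07, 0.031 with median-of-ratios factors, and 0.025 to 0.12 when each library was left out. The uaRNA result depends on the scaling. With the median-of-ratios factors of the gene table, 67.9% of members rose with a median of 1.154, against 58.2% and 0.842 over all uaRNAs. With the uaRNA table scaled on itself, which sets the median of all uaRNAs near 0 by construction, 15 (median of ratios), 16 (TMM) and 16 (edgeR with TMM) of the members rose and 5, 5 and 6 fell, with medians of 0.33, 0.35 and 0.33, in place of 40, 0 and 1.19. Leaving out each library, 31 to 40 rose, 0 to 1 fell (Rps29, without siNT replicate 2) and the median was 0.93 to 1.41. For the ratio of uaRNA to exon reads, 5 and 5 rose and 2 and 2 fell under the median of ratios and TMM, with medians of 0.32 and 0.33, in place of 36 and 0. Leaving out each library gave 10 to 32 rises and a median of 0.87 to 1.246, the low ends without siZC3H4 replicate 2. Over all genes 277 rose over exons, 38 without a filter on low values, 537 in DESeq2 and 1530 with the block. Over all uaRNAs 3180 rose and 58 fell, against 536 and 597, 561 and 565, and 609 and 621 under the 3 self-scalings in the order above. Single uaRNAs turned negative under them: Rpl10l to -0.80, -0.78 and -0.87, Rpl6 to -0.58, -0.56 and -0.62, Rps2 to -0.85, -0.82 and -0.85, Rpl32 to -0.55, -0.53 and -0.54, Rpl5 to -0.42, -0.40 and -0.42, Rpl35 to -0.13, -0.11 and -0.10, and Rpl7l1 to -0.87, -0.84 and -0.85. Of these, Rps2, Rpl32 and Rpl7l1 passed as falls under all 3 self-scalings, as did Rps29 and Rps26, and Rpl10l passed under edgeR with TMM. Rpl10l was -0.016 in edgeR and -0.014 in DESeq2 with the depth factors, and Rpl7l1 was -0.022 with the median-of-ratios factors of the gene table. Rpl28, Rpl23a and Rpl26 lost their calls under these self-scalings, and Rpl23a, Rpl26 and Rpl35 without siZC3H4 replicate 2. Rps19bp1 lost its call under 11 alternatives (adjusted p = 0.0555 to 0.861). Over exons Rplp1 turned to -0.019, -0.0057 and -0.014, and Rps18-ps5 to -0.027, -0.014 and -0.0012, under the same scalings. Rpl36al became 0.0011 in edgeR and 0.00028 in DESeq2 with the depth factors. Leaving out each library, exon values ran from -0.12 to 0.53 for Rpl22l1, -0.060 to 0.049 for Rpl3, -0.33 to 0.28 for Rpl36al, -0.064 to 0.21 for Rpl5, -0.021 to 0.065 for Rplp1, -0.050 to 0.14 for Rplp2, -0.19 to 0.22 for Rps18-ps5 and -0.081 to 0.0035 for Rps19bp1. The uaRNA values ran from -0.27 to 0.42 for Rpl10l, -0.074 to 0.073 for Rpl27, -0.25 to 0.28 for Rpl7l1 and -0.16 to 0.25 for Rps2. Apart from the self-scaling, the cause was not tested. The replicate numbers are shared by siZC3H4 and siNT replicates 2 and 3, and same-numbered libraries deviated together (correlations 0.528 and 0.618 over genes, 0.376 and 0.426 over uaRNAs). With only 2 such pairs, and labels that give nothing but the number, they do not establish a pairing. With the replicate number as a block, siNT replicate 1 drops out. It moved Rpl36al to 0.039 and Rpl3 to 0.049 over exons and the median ratio to 1.06, with 35 rises (62.5%, against 61.9% and a median of 0.95 over all pairs), and left 40 uaRNA rises. Depth limits Rpl6, Rpl26, Rpl27 and Rps19bp1, whose uaRNAs have few reads.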
